A study of Mus musculus with 6 samples.

Results

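The genes described here are 10 non-collagen genes of the extracellular matrix, Tnc, Aebp1, Ccn2, Sparc, Postn, Bgn, Dcn, Fbn1, Fn1 and Lox, out of 46983 gene identifiers in the count table. They were taken by name from a list and matched to the Ensembl identifiers by symbol, and all 10 were found. The members were selected on their measured difference between AEG-1 KO and WT, since results of that contrast were in view when the list was drawn up. Their direction is therefore given as a description, with no test. RNA came from mouse bone marrow derived macrophages in 2 groups of 3 libraries. One group was wild-type C57BL/6 (WT) and the other C57BL/6 with a knockout of AEG-1 (AEG-1 KO), the protein encoded by Mtdh. Both genotypes were cultured from femoral marrow for 7 days, in 10% serum with 20% medium conditioned by L929 cells (a source of the growth factor M-CSF), and were left untreated. The labels do not say which part of Mtdh was removed, in which cells, or whether replicates came from different animals. The p-values below thus rest on library-to-library spread, part or all of which may be technical.

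Totals ran from 42548170 to 58947230 reads per library. Mtdh had 11560, 14849 and 11806 reads in WT and 15, 22 and 15 in AEG-1 KO, so each library carried the Mtdh level of its label. All 12 macrophage markers examined, among them Adgre1, Csf1r and Lyz2, passed the filter on low counts. Their summed level was 19600.2 to 20051 CPM in WT and 20508 to 20822 CPM with the knockout, where CPM are counts scaled to a common library size after TMM normalization. WT replicate 3 stood apart for Sparc and is named beside the values it touches.

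The extracellular matrix outside the collagens holds several kinds of protein. Fibronectin (Fn1) and fibrillin-1 (Fbn1) assemble into fibrils and microfibrils, and lysyl oxidase (Lox) is a secreted enzyme that crosslinks collagen and elastin. Matricellular proteins such as tenascin-C (Tnc), CCN2 and SPARC act on cells more than they bear load, and biglycan (Bgn) and decorin (Dcn) are small leucine-rich proteoglycans that decorate fibrils. Fibroblasts are the best known source of these proteins, and macrophages are known to make some of them, fibronectin among them.

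RefSeq promoter windows (GRCm38.p6) were matched for 6 of the 10 genes, Tnc, Aebp1, Sparc, Postn, Bgn and Fbn1. The windows of Sparc and Fbn1 lay over annotated exons and are not printed, and for Tnc and Postn, which had a second window each, the one nearest the annotated gene start was taken. The 250 bases before the transcription start are shown for the other 4, because their transcripts were higher in every AEG-1 KO library than in any WT library. Capitals mark matches on either strand to 5 motifs. These are the TATA box TATAAA, the SMAD element CAGACA, the TEAD element GGAATG, the AP-1 element TGANTCA and the SP1 GC box GGGCGG. The windows are chr4:64047016-64047265 for Tnc (minus strand), chr11:5861616-5861865 for Aebp1 (plus), chrX:73483351-73483600 for Bgn (plus) and chr3:54360857-54361106 for Postn (plus).
Tnc: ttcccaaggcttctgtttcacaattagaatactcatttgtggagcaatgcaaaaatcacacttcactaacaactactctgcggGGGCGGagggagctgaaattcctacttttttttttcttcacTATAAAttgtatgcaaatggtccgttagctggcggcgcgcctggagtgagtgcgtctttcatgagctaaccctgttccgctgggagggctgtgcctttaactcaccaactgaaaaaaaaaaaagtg
Aebp1: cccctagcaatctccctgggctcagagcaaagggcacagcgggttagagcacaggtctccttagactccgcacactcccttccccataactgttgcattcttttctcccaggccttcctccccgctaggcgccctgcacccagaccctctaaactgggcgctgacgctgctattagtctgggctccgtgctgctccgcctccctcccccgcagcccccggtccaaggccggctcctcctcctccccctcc
Bgn: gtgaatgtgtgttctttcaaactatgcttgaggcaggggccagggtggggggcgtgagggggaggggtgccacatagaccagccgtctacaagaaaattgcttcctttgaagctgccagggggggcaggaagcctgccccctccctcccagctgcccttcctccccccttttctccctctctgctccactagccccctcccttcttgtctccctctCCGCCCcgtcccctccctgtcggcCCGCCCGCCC
Postn: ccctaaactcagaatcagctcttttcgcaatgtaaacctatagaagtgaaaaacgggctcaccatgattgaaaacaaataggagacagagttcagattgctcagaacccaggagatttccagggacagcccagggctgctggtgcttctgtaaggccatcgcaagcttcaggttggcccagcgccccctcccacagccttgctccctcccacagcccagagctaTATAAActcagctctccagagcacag
The Tnc window held 1 GC box, starting 167 bases before the start site, and 1 TATA box at 126 bases. Bgn held 3 GC boxes within 34 bases of the start, of which the last pair overlap each other, and Postn held 1 TATA box at 26 bases. Aebp1 held none of the 5 motifs. None of these 4 windows held the SMAD, TEAD or AP-1 letters. Of the windows not printed, the second of Tnc and that of Sparc each held 1 SMAD element. These lay 71 and 36 bases before their start sites. Over the same length in all 32851 windows of the table, 12.4% held the TATA box, 32.7% the GC box, 17.1% the SMAD element, 12.6% the TEAD element and 6.7% the AP-1 element. A match is a stretch of letters and not a shown site of binding.

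Of the 10 genes, 9 were rare transcripts and 1, Lox, was abundant. To compare genes, CPM were divided by the length of each gene's exons in kilobases. Lox stood at 159 ± 11.2 CPM per kilobase in WT (SD, n = 3), and the next gene, Sparc, at 1.09 ± 0.852. Below them came Ccn2 at 0.724, Fn1 at 0.467, Tnc at 0.334, Bgn at 0.318, Aebp1 at 0.223, Postn at 0.154, Fbn1 at 0.107 and Dcn at 0.0104 CPM per kilobase. Neighbours in this WT order whose ranges over 3 libraries did not overlap were Lox and Sparc, Bgn and Aebp1, Postn and Fbn1, and Fbn1 and Dcn. The other 5 pairs of neighbours did not differ beyond their spread. In AEG-1 KO the order was the same except that Tnc, at 0.753, lay above Fn1, at 0.696 CPM per kilobase, with overlapping ranges. With the longest transcript as the length, Bgn moved from the sixth to the fourth place in both groups, Fn1 lay above Tnc in both, and Postn lay above Aebp1 in WT.

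Lox alone made up 97.1% to 98.3% of the summed CPM per kilobase of the 10 genes in the WT libraries and 94.8% to 96.1% in the AEG-1 KO libraries. By its mean WT level it was number 344 of 16056 tested genes with a known length. The other 9 fell between number 11848 for Sparc and number 16055 for Dcn. Together these 9 had 749 to 1140 reads per library in WT and 1426 to 1578 in AEG-1 KO.

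**Figure D1:**
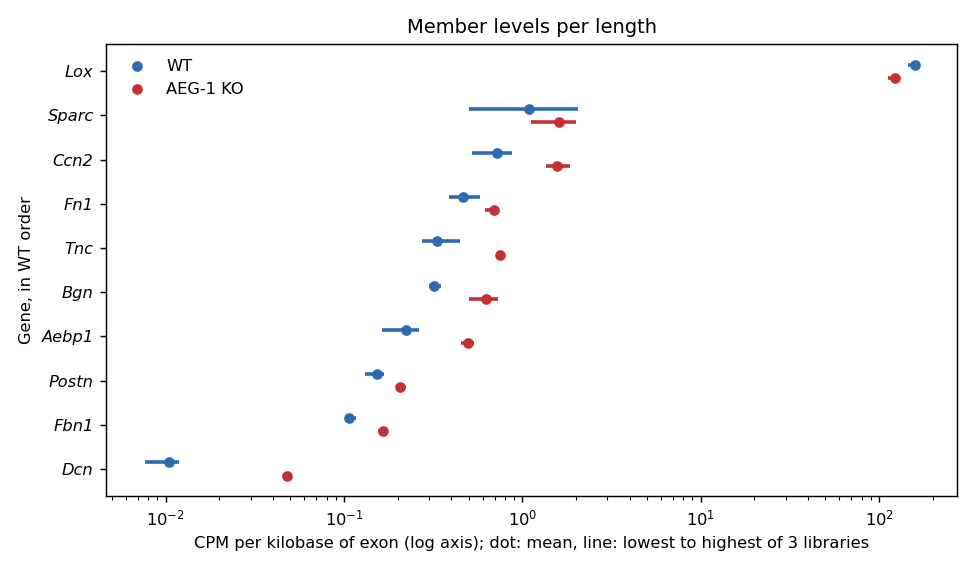
CPM per kilobase of exon (log axis) of the 10 matrix genes in WT (blue) and AEG-1 KO (red); dots are means and lines run from the lowest to the highest of 3 libraries. Lox lies at 159 and 123 CPM per kilobase in WT and AEG-1 KO, and no other gene has a mean above 1.61.

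Between genotypes, 9 of the 10 genes had a higher mean in AEG-1 KO and Lox a lower one. In 8 of them every AEG-1 KO library lay above every WT library, against 13.9% of the 16115 genes tested. In Lox every AEG-1 KO library lay below, against 12.9%, or 26.8% of genes in either direction. In Sparc the groups overlapped. By edgeR's quasi-likelihood fit over all genes, 7 members were among the genes called higher at an adjusted p of 0.05, against 3.31% of genes tested. Lox was among those called lower, against 3.04%, and Sparc and Postn were in neither group. Dcn is in the 8 and the 7, but passed the filter on low counts only through the AEG-1 KO libraries. It could thus enter these counts only as higher. Nothing is read from these counts, or from the calls of single members given below, because the members were chosen with this contrast known. The median of the log2 fold change (log2FC, knockout relative to WT) over the 10, Dcn included, was 0.79, beside 0.01 over all genes tested. Among 6069 other tested genes of the low range that the 9 rarer members span, 0.17 to 6.79 CPM, 1.43% were called higher, 12.1% had every AEG-1 KO library above every WT library, and the median log2FC was 0.04. In bulk RNA of this kind fewer cells of a type and less RNA per cell cannot be told apart.

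**Figure D2:**
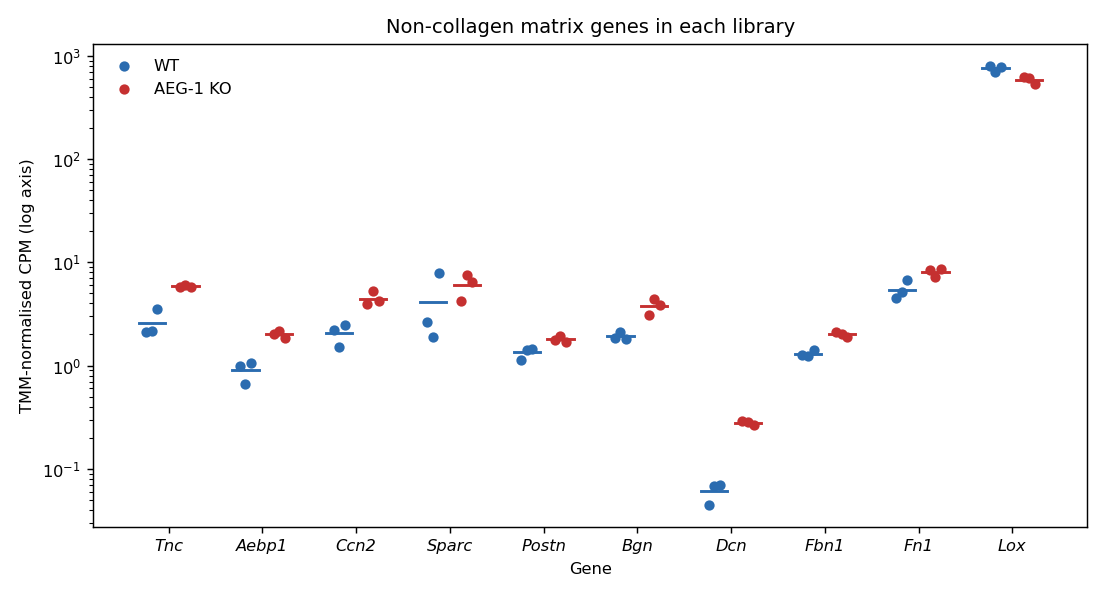
TMM-normalised CPM (log axis) of each of the 10 genes in every library (points) with the group mean (line), WT in blue and AEG-1 KO in red. The AEG-1 KO points lie above the WT points in 8 genes, overlap them in Sparc and lie below them in Lox.

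Lox, the crosslinking enzyme, is the abundant member (ENSMUSG00000024529, chromosome 18, 52516067 to 52529867). Positions of the members are on GRCm38. It had 35670, 40774 and 33650 reads in the WT libraries, in the order of their replicate numbers, and 28266, 25713 and 24106 in AEG-1 KO. Scaled to library size these were 798, 697 and 778 CPM in WT and 627, 604 and 538 CPM in AEG-1 KO. The lowest WT library lay above the highest AEG-1 KO library. The mean went from 758 ± 53.7 to 590 ± 46.3 CPM (SD, n = 3), or 0.778 of WT, a log2FC of -0.36 ± 0.07 (SE). Lox was left out of the called genes when AEG-1 KO replicate 2 was not used. Its read counts are large enough that counting error (0.522% of the WT mean) is small beside the spread between WT libraries (7.08%).

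Tnc, Ccn2, Sparc and Postn are the matricellular members. Tnc encodes tenascin-C, a glycoprotein known to appear at sites of injury (ENSMUSG00000028364, chromosome 4, 63959785 to 64047015). It had 95, 127 and 151 reads in WT and 260, 259 and 256 in AEG-1 KO, or 2.13, 2.17 and 3.49 CPM against 5.77, 6.08 and 5.71 CPM. WT replicate 3 was the highest WT library and still lay below all 3 AEG-1 KO libraries, which differed from each other by less than counting error (3.39% against 6.22% of the mean). The mean was 2.60 ± 0.776 CPM in WT and 5.85 ± 0.199 CPM with the knockout, a log2FC of 1.19 ± 0.17 (SE).

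Ccn2 encodes connective tissue growth factor and is known as a target of TGF-beta and of the cofactor YAP (ENSMUSG00000019997, chromosome 10, 24595442 to 24598683). It had 99, 88 and 108 reads in WT and 176, 225 and 188 in AEG-1 KO. In CPM these were 2.216, 1.504 and 2.497 against 3.91, 5.28 and 4.20. The groups did not overlap, and AEG-1 KO replicate 2 was the highest library. The log2FC was 1.13 ± 0.19 (SE).

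Sparc encodes a collagen-binding glycoprotein also known as osteonectin (ENSMUSG00000018593, chromosome 11, 55394500 to 55423183) and was the least even of the 10 genes. It had 117, 111 and 338 reads in WT and 190, 322 and 291 in AEG-1 KO, or 2.619, 1.897 and 7.816 CPM against 4.22, 7.56 and 6.49 CPM. WT replicate 3 was the highest of all 6 libraries, at 3.46 times the mean of the other 2 WT libraries. The WT spread was 78.6% of the mean, where counting error was 7.28%. The log2FC was 0.62 ± 0.44 (SE) with all libraries and 1.45 without WT replicate 3. In the fit without that library Sparc was called higher, and in no other fit without 1 library was it called.

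Postn encodes periostin, known to bind tenascin-C and collagen (ENSMUSG00000027750, chromosome 3, 54361109 to 54391037). It had 51, 83 and 63 reads in WT and 79, 83 and 76 in AEG-1 KO, or 1.14, 1.42 and 1.46 CPM against 1.75, 1.95 and 1.70 CPM. The AEG-1 KO libraries lay above the WT libraries by a small margin, and the WT spread (12.9%) was close to counting error (12.3%). The log2FC, 0.42 ± 0.15 (SE), was the smallest of the 9 positive values, and Postn was called in none of the fits run.

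The proteoglycan members are Bgn and Dcn. Bgn encodes biglycan, which in soluble form is known as a ligand of Tlr2 and Tlr4 (ENSMUSG00000031375, chromosome X, 73483602 to 73495933). It had 83, 125 and 79 reads in WT and 139, 190 and 172 in AEG-1 KO, or 1.86, 2.14 and 1.83 CPM against 3.08, 4.46 and 3.84 CPM. The groups did not overlap, and AEG-1 KO replicate 2 was again the highest. The mean was 1.94 ± 0.171 CPM in WT and 3.79 ± 0.689 CPM with the knockout (SD, n = 3), a log2FC of 0.95 ± 0.16 (SE).

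Dcn encodes decorin, a binder of collagen fibrils and TGF-beta, and was near the limit of detection (ENSMUSG00000019929, chromosome 10, 97479609 to 97518143). It had 2, 4 and 3 reads in WT and 13, 12 and 12 in AEG-1 KO. Pooled over libraries, 9 reads against 37 gave a ratio of 4.55 after scaling. So few reads leave a large counting error, 57.7% of the mean in WT and 28.5% in AEG-1 KO. Dcn passed the minimum of 10 reads only through the AEG-1 KO libraries, so a gene with its level could be tested only if it was higher there. Without Dcn, under a stricter filter of 1 CPM in 3 libraries, the median log2FC of the other 9 was 0.63.

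Fn1 and Fbn1 are the fibril and microfibril members. Fn1 encodes fibronectin, which cells assemble through integrins (ENSMUSG00000026193, chromosome 1, 71585520 to 71653200). It had 202, 299 and 291 reads in WT and 381, 308 and 390 in AEG-1 KO, or 4.52, 5.11 and 6.73 CPM against 8.46, 7.23 and 8.70 CPM. The nearest libraries of the groups, WT replicate 3 and AEG-1 KO replicate 2, lay close together. The log2FC was 0.58 ± 0.14 (SE). Fbn1 encodes fibrillin-1, the main protein of microfibrils (ENSMUSG00000027204, chromosome 2, 125300594 to 125507993). It had 56, 72 and 61 reads in WT and 96, 86 and 84 in AEG-1 KO, or 1.25, 1.23 and 1.41 CPM against 2.13, 2.02 and 1.87 CPM. The log2FC of Fbn1 was 0.64 ± 0.14 (SE), with a spread inside each group below counting error. Both were among the called genes with all libraries and without WT replicate 3, and in none of the other 5 fits that left out 1 library. DESeq2 called Fn1 but not Fbn1.

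Aebp1 encodes a secreted collagen-binding protein that takes part in fibre assembly, also known as aortic carboxypeptidase-like protein (ENSMUSG00000020473, chromosome 11, 5861947 to 5872088). It had 44, 39 and 46 reads in WT and 92, 93 and 82 in AEG-1 KO, or 0.985, 0.667 and 1.06 CPM against 2.04, 2.18 and 1.83 CPM. Every AEG-1 KO library lay above every WT library. The mean was 0.905 ± 0.21 CPM in WT and 2.02 ± 0.178 CPM with the knockout, a log2FC of 1.19 ± 0.19 (SE).

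**Figure D3:**
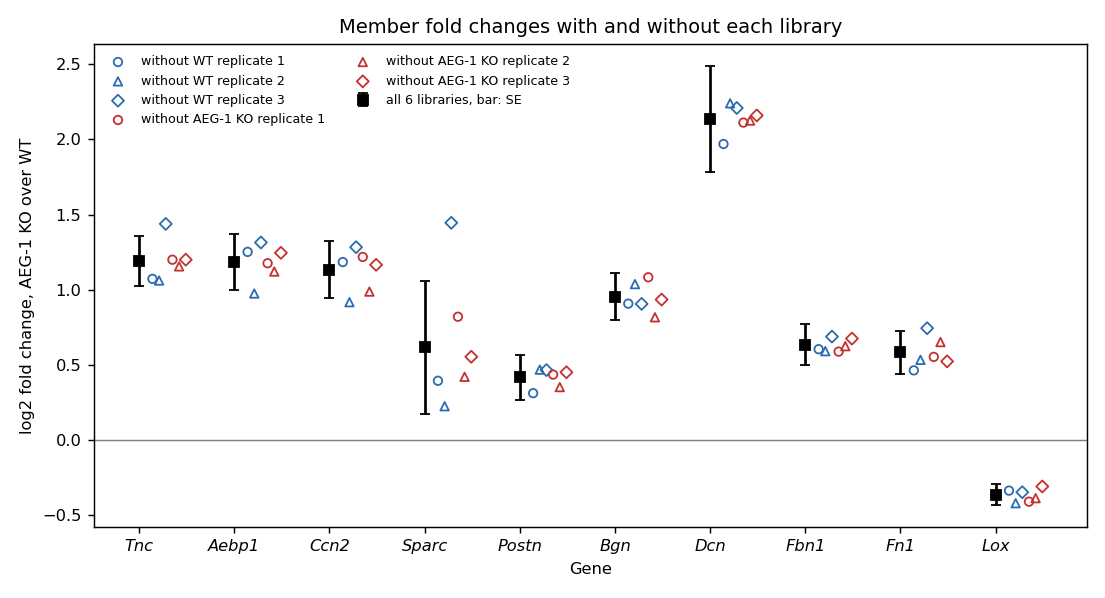
Log2FC of the 10 genes with all 6 libraries (black squares, bar: SE) and with each library left out (open symbols, blue for WT and red for AEG-1 KO). All values keep their sign, and Sparc spans the widest range, from 0.23 without WT replicate 2 to 1.45 without WT replicate 3.

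Some of these values may hold reads of overlapping genes, or may lack reads of the shared stretches. The sources used here do not state whether reads were counted by strand. On the opposite strand, Gm15270 covered 23.2% of the Ccn2 exon bases and Gm9913 covered 20.1% of those of Fbn1, and these partners had 1 and 0 reads of their own over the 6 libraries. Tnc, Fn1 and Lox shared 2.26%, 2.50% and 0.63% of their exon bases with opposite-strand genes. A search for copies with at least 95% identity over 100 bases found 25 other genes that share a stretch with an annotated Fn1 transcript, so the Fn1 value is uncertain. For the other 9 genes it found only genes that overlap them, and none at all for Aebp1, Sparc, Postn, Bgn, Dcn and Lox.

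Other non-collagen matrix genes were taken from 4 textbook lists. Of 82 listed, 36 had enough reads to be tested. Ccn4 passed the filter only through the AEG-1 KO libraries and is left out of the counts. Loxl1 and Ltbp1 passed it in the same way, but were not called and stay in the counts and medians here and below. The filter scales its minimum of 10 reads to library size. Thbs3 would not have passed it on its WT libraries alone, nor Smoc1 and Fndc1 on their AEG-1 KO libraries alone. They were not called and stay in as well. Of the 35 genes without Ccn4, 5 rose, 1 fell and 29 missed the threshold of the edgeR test, against 6.35% of all genes called in either direction. Their median log2FC was 0.12. Among the 8 matricellular genes 3 were called higher and none lower, with a median of 0.35. Of those not called, Smoc1 was lower in every AEG-1 KO library than in any WT library. It had 28, 26 and 29 reads in WT and 10, 15 and 12 in AEG-1 KO (log2FC -1.02 ± 0.28 SE). Thbs2, also not called, was higher in every AEG-1 KO library, at a log2FC of 0.83 ± 0.22 (SE). Smoc1 and Thbs2 were named after their values were seen. Thbs1, which encodes thrombospondin 1, had a log2FC of 1.23 ± 0.05 (SE, edgeR adjusted p = 3.67e-06). Spp1, which encodes osteopontin and was the most abundant matrix gene per length, rose from 581 ± 11.2 to 700 ± 19.0 CPM (edgeR adjusted p = 0.00453).

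Ccn1, a relative of Ccn2, rose at a low level. It had 34, 32 and 25 reads in WT and 52, 59 and 53 in AEG-1 KO (log2FC 0.99 ± 0.19 SE, edgeR adjusted p = 0.0166). Its groups did not overlap, and it lost its call without WT replicate 2 or AEG-1 KO replicate 2. Ccn4, another relative, had 5, 8 and 6 against 26, 20 and 12 reads, and since a gene with its WT level could be tested only if it was higher in AEG-1 KO, no test is given. Ccn3 had no reads, and Ccn5 and Ccn6 were too low to test.

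None of the 9 tested genes of other fibres and elastic fibres was called by edgeR, DESeq2 or limma-voom, with 2 at an unadjusted edgeR p under 0.05. Ltbp2, a relative of the fibrillins, had a log2FC of 0.45 ± 0.13 (SE, edgeR adjusted p = 0.0742). Fndc1 had one of -0.83 ± 0.35 (SE), with 27, 19 and 15 reads in WT and 9, 13 and 9 in AEG-1 KO. Fndc1 is 1 of the 2, but would not have passed the filter on its AEG-1 KO libraries alone, so nothing is read from its p. Of 17 other proteoglycans only Vcan and Hspg2, the genes of versican and perlecan, could be tested, at log2FC values of 0.38 and 0.78 (edgeR adjusted p = 0.109 and 0.102). No tool called them with all libraries, and both had an unadjusted edgeR p under 0.05. Without WT replicate 1, edgeR called Hspg2 and Ltbp2 higher (adjusted p = 0.0456 and 0.0491), which it did in no other fit without 1 library. Lum, the gene of lumican and a relative of Dcn and Bgn, was too low to test. It had 8, 12 and 12 reads in WT and 4, 1 and 4 in AEG-1 KO. Its relatives Fmod, Ogn and Prelp, also too low to test, had higher means with the knockout. Fmod had 1, 0 and 1 against 4, 8 and 2 reads, and Ogn 0, 1 and 2 against 2, 4 and 8. Prelp had 0, 0 and 1 against 4, 1 and 1 reads. Podn and Ecm2 had lower means with the knockout, on 4 reads or fewer per library. Lum and these relatives were singled out after their values were seen.

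Enzymes that crosslink or process matrix moved in both directions. Among the 16 tested, edgeR called 2 higher and 1 lower and left 13 uncalled, with a median log2FC of 0.02. Bmp1, the protease that matures procollagens and the Lox proenzyme, fell from 5.99 ± 0.209 to 3.48 ± 0.108 CPM (log2FC -0.78 ± 0.09 SE, edgeR adjusted p = 0.00115). It had 277, 351 and 250 reads in WT and 162, 144 and 155 in AEG-1 KO, with no overlap. F13a1, the gene of a transglutaminase that is also a monocyte marker, rose by a log2FC of 0.60 (edgeR adjusted p = 0.00162). Loxl2, a relative of Lox, had 18, 28 and 20 against 32, 47 and 43 reads (log2FC 1.03 ± 0.23 SE, edgeR adjusted p = 0.0315). Loxl2 kept its call only without AEG-1 KO replicate 1, of the 6 fits that left out 1 library.

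Lox was the main transcript of its family in both genotypes. In WT its level was 159 CPM per kilobase, with Loxl3 at 5.92, Loxl2 at 0.0829, Loxl1 at 0.047 and Loxl4 at 0.018 CPM per kilobase. Loxl3 did not pass the test between genotypes, at a log2FC of -0.05 ± 0.07 (SE, edgeR adjusted p = 0.719). Among all 92 matrix genes considered, Lox was the third by WT level per length, after Spp1 at 352 and Tgfbi at 166 CPM per kilobase. The ranges of Tgfbi and Lox overlapped in WT. In AEG-1 KO, Tgfbi ran from 156 to 163 and Lox from 113 to 131 CPM per kilobase, with no overlap.

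**Figure D4:**
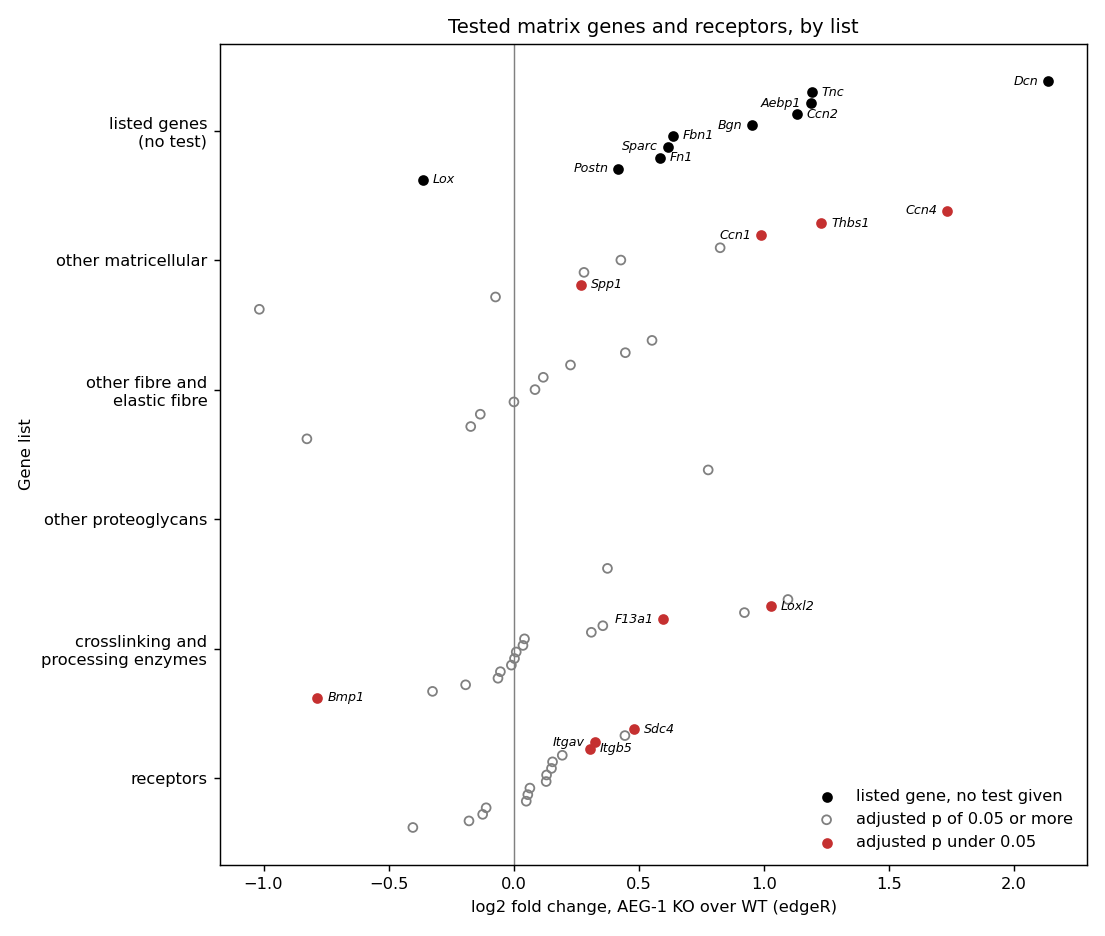
Log2FC (edgeR) of every tested gene in 6 lists, namely the 10 genes described, 4 lists of other matrix genes and the receptors; black marks the 10 listed genes, for which no test is given, red marks an adjusted p under 0.05 and open grey an adjusted p of 0.05 or more. Among these lists the red genes lie to the right of 0 except Bmp1 at -0.78. Ccn4 is drawn red but passed the filter only through AEG-1 KO. Dcn (black) and Loxl1 and Ltbp1 (grey) passed it in the same way. Thbs3 (grey) would not have passed on WT alone, nor Smoc1 and Fndc1 (grey) on AEG-1 KO alone.

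Receptors known to bind these proteins came from a list of 18. Of the 16 tested, edgeR called 3 higher and none lower, with a median log2FC of 0.13. Sdc4, a heparan sulfate proteoglycan that binds fibronectin, rose from 56.8 ± 1.36 to 79.3 ± 1.005 CPM (log2FC 0.48 ± 0.04 SE, edgeR adjusted p = 0.000374). The integrin subunit genes Itgav and Itgb5 rose by log2FC values of 0.32 and 0.30 (edgeR adjusted p = 0.0119 and 0.0194), and neither was called when AEG-1 KO replicate 2 was left out. Without WT replicate 2 Itgav was not called, nor was Itgb5 without AEG-1 KO replicate 3. Itga5, the subunit of the main fibronectin receptor, stood at 462 CPM in WT and 484 CPM with the knockout (edgeR adjusted p = 0.463). Stab1, which takes up SPARC, stood at 513 and 572 CPM (edgeR adjusted p = 0.259). Itga5 and Stab1 were named after their values were seen.

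Genes of TGF-beta and YAP signalling, which drive many matrix genes in fibroblasts, came from a list of 26. Of the 20 tested, edgeR called 2 higher and none lower, against 3.31% of all genes tested called higher. Their median log2FC was 0.14. At an unadjusted edgeR p under 0.05, 7 were higher and 1 was lower. Tead1 and Tead2 are among the 7, but would not have passed the filter on low counts on their WT libraries alone. Tgfbr1, a receptor gene, had a log2FC of 0.34 (edgeR adjusted p = 0.0151), a call lost without WT replicate 2 or AEG-1 KO replicate 2. Yap1 had 1, 3 and 6 reads in WT and 2, 8 and 3 in AEG-1 KO and could not be tested, and Wwtr1, the gene of its relative TAZ, was as low.

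Markers of cell types other than macrophages were also examined. Of 13 tested fibroblast and stromal markers 4 rose and none fell, all 4 of them collagen genes. These were Col1a2, Col6a2, Col6a1 and Col3a1, at log2FC values of 0.94, 1.31, 1.06 and 1.16 (edgeR adjusted p = 0.00412, 0.00513, 0.0284 and 0.0348). Col6a1 lost its call without 3 and Col3a1 without 5 of the 6 libraries in turn. The summed level of the 21 listed markers was 21.4 to 25.3 CPM in WT and 26.4 to 29.8 CPM with the knockout. Twist2, Tcf21 and Dpt had no reads in any library.

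Pdpn, which macrophages also express, held a large part of that sum, at 12.9 CPM in WT and 11.6 CPM with the knockout. The 12 stromal markers that encode no matrix protein, Pdpn left out, summed to 4.598 to 4.857 CPM in WT and 5.21 to 5.41 CPM with the knockout, a grouping made after the values were seen. None of the 6 of them that were tested was called by edgeR, DESeq2 or limma-voom, with 1 at an unadjusted edgeR p under 0.05. Their log2FC values lay on both sides of 0. Cxcl12, which marks marrow stroma, had 20, 21 and 22 reads in WT and 30, 33 and 42 in AEG-1 KO (log2FC 0.88, edgeR adjusted p = 0.0572). Fap, a marker of activated fibroblasts, had 40, 48 and 43 against 34, 28 and 30 reads (log2FC -0.37, edgeR adjusted p = 0.278). Pdgfrb, with 71, 97 and 57 against 59, 82 and 60 reads, and Prrx1 had log2FC values of -0.01 and -0.07 (edgeR adjusted p = 0.978 and 0.958). Pi16 and Cdh11, the rest of the 6 tested, had log2FC values of 0.38 and 0.24 (edgeR adjusted p = 0.402 and 0.618). Pdgfra, too low to test, had 4, 1 and 3 against 9, 5 and 10 reads, and Lepr 6, 9 and 5 against 9, 1 and 5. Cxcl12 and the genes given after it were named after their values were seen. The part of stromal cells in the member values was not tested.

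Of 9 monocyte markers 1, Fn1, is among the 10 genes described and is left out of the count. Of the other 8, edgeR called 5 higher and none lower, with a summed level, Fn1 included, of 147 to 164 CPM in WT and 199 to 214 CPM with the knockout. F13a1 and Chil3 are among the 5. Ccr2, Plac8 and Ly6c2 had log2FC values of 0.67, 0.88 and 0.58 (edgeR adjusted p = 0.000493, 0.00117 and 0.00688). Of 8 tested neutrophil markers 5 rose and 1 fell, with sums of 163 to 185 and 205 to 246 CPM. Ly6g, 1 of the 8 and not called, passed the filter only through AEG-1 KO. Ngp, Ltf, S100a8 and S100a9 rose by log2FC values of 0.65, 0.62, 0.49 and 0.63 (edgeR adjusted p = 0.0016, 0.00252, 0.00947 and 0.0111). S100a8 and S100a9 lost their calls without WT replicate 2 or AEG-1 KO replicate 2. Camp also rose and Lcn2 fell, at log2FC values of 0.59 and -0.34 (edgeR adjusted p = 0.0258 and 0.0129), both named after their values were seen. The part of these cells in the member values was not tested.

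Among the macrophage markers 4 rose, 1 fell and 7 missed the threshold, with a median log2FC of 0.18. Csf1r, Mertk, Mrc1 and Cd14 had log2FC values of 0.38, 0.39, 0.42 and 0.35 (edgeR adjusted p = 0.000919, 0.00101, 0.00117 and 0.0016). The 1 that fell, named after its value was seen, was Adgre1, at -0.19 (edgeR adjusted p = 0.0238). Of 4 tested smooth muscle and pericyte markers 1 rose, Tagln at a log2FC of 0.56 (edgeR adjusted p = 0.0197), a call lost without WT replicate 2 or any of the 3 AEG-1 KO libraries. Their sums were 8.06 to 9.46 and 9.93 to 10.6 CPM. Among 5 tested endothelial markers, Cdh5 and Vwf, at log2FC values of 0.51 and 0.28 (edgeR adjusted p = 0.0646 and 0.119), had the smallest p. None of the 5 was called by edgeR, DESeq2 or limma-voom, 2 had an unadjusted edgeR p under 0.05, and the sums were 12.5 to 13.5 and 14.3 to 16.5 CPM. Alpl and Runx2 were the only bone, cartilage or fat markers with enough reads, at log2FC values of 0.68 and 0.05 (edgeR adjusted p = 0.771 for Runx2). No tool called them, and the sums were 5.84 to 6.45 and 6.32 to 6.90 CPM. Alpl had an unadjusted edgeR p under 0.05, but would not have passed the filter on its WT libraries alone, so nothing is read from that p.

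Strand and overlap also touch genes named beside the members. Thbs1, F13a1, Loxl2, Loxl3, Itgav, Stab1, Ltbp2, Tagln, Csf1r, Runx2, Yap1, Pdgfra, Pi16 and Prelp share exon bases with a gene on the opposite strand. Thbs3 and Tead2 do so too, and Spp1 and Col3a1 share them with a gene on the same strand. The values of all these genes are therefore uncertain.

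Likeness to the members was also sought within genotypes. Each library's log2 CPM was centred on its genotype mean and averaged over the 10 members. This profile was highest in WT replicate 3, at 0.28, and lowest in WT replicate 2, at -0.18, and Sparc, at 1.19 and -0.82, took the largest part in it. The genes most like it over the 6 libraries were Gm4754, Epb41l3, Zfp322a, Zfp738 and Mgl2, with Pearson's r from 0.992 to 0.999. The 6 points share the libraries' depth and composition, and 287 of 13282 genes of at least 1 CPM had an r of 0.9 or more, so these names describe the libraries and not the genes.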

How the data were processed

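RNA-seq libraries of 3 WT and 3 AEG-1 KO macrophage samples were compared. The deposited values are raw read counts per Ensembl gene, per the file headers. Per the submitters' processing notes, which leave order and roles unstated, the tools were featureCounts 1.4.6-p4, Subread, edgeR 3.18.1, cutadapt 1.9 and FastQC 0.11.2 and the genome names GRCm38 and mm10. Which annotation was used, whether counting was stranded, and how reads with several matches were treated is likewise not stated.

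Symbols, GRCm38 positions and lengths came from GENCODE mouse release 21, which matched 46488 identifiers. The quasi-likelihood test of edgeR 4.0.16 (run in R 4.3.3) compared the genotypes, with no covariate. It used TMM scaling, genes kept by filterByExpr at 10 reads or more, and Benjamini-Hochberg adjustment over 16115 genes. Standard errors were obtained as log2FC divided by the root of the F statistic, taken as positive. Copies were sought with BLAST+ 2.17.0. Alternatives were other scalings and filters, DESeq2 1.42.0, limma-voom (limma 3.58.1), the replicate number as a block, and leaving out each library. On simulated AEG-1 KO against WT data over 15982 genes, 92% of log2 changes of 1 and 66% of 0.5 were recovered and 7.06% of calls were false.

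Members and lists were chosen with earlier results of these data known. Beside the 10 members, the genes named were up to 4 called genes of each list by smallest adjusted p, or up to 2 where none was called, and the 5 genes most like the members within genotypes. A called gene is not reported here. Chi-square per degree of freedom between replicates was 5.21 to 17.8, so no library repeated another.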

Additional observations from a re-analysis of the deposited data

How the results depend on the processing

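All 10 members kept the sign of their log2 fold change under every alternative that tested them; Dcn was not tested under the stricter filter, and DESeq2 gave it no adjusted p. Without 1 library at a time, 5 to 9 members (Dcn included) were called in place of 8. Their median log2 fold change was then 0.73 to 1.09, and 4 to 8 of the other matrix genes (Ccn4 included) were called in place of 7. Over all genes, 380 to 1092 were called in place of 1023, with 441 without WT replicate 2 and 667, 380 and 606 without AEG-1 KO replicates 1, 2 and 3. The member count was lowest without AEG-1 KO replicate 2 and the other matrix count without that library or WT replicate 2. Same-numbered libraries of the genotypes did not deviate together (correlations of deviations -0.27, -0.17 and -0.25). Differently numbered libraries had correlations of 0.06 to 0.19. With 3 libraries per genotype these values cannot decide whether the numbers pair libraries, and the labels do not say. With the replicate number as a block, 227 genes, 2 members (Tnc and Bgn) and 3 other matrix genes were called. The cause was not tested. The scalings kept the median of all genes between 0.00 and 0.01. Counting error alone was 10.6% to 15.2% of a group's mean in Aebp1, Postn and Fbn1, and in Dcn 57.7% in WT and 28.5% in AEG-1 KO.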
